A study of Capra hircus with 3 samples.

Results

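TP63 and the Notch ligands, receptors and target genes are described here as measured in goat skin under a short and a natural photoperiod. The members are all non-control probes named TP63, JAG1, JAG2, DLL1, NOTCH1, NOTCH2, NOTCH3, HES1 or HEY1 on a sheep array, or described there with the words notch, jagged, delta-like or tumor protein p63. This gave 8 probes of 15008, from 6 sequence records of 14363. Of the 9 names searched, TP63 and JAG1 each had 2 probes. NOTCH1 was found through the description of 1 probe, and 6 names (JAG2, DLL1, NOTCH2, NOTCH3, HES1 and HEY1) had 0 probes, so these genes are not analysed here. TP63 and JAG1 were selected on their fold change between the photoperiods in these same arrays. Their ratios are therefore given as a description with no test, while the other 4 probes were found through their descriptions.

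Notch signalling passes between neighbouring cells. A ligand of the jagged or delta-like family on one cell binds a Notch receptor on the next, the receptor is cleaved, and its intracellular domain enters the nucleus and acts with RBPJ on targets such as the HES and HEY genes. In skin the pathway is known for its part in keratinocyte differentiation and in the upkeep of hair follicles, and the transcription factor p63 is known as a regulator of the basal layer of stratified epithelia.

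The study compared skin from the body side of 2-year-old female Arbas Cashmere goats, taken in July. For the 3 goats of the short photoperiod, daylight was limited to the time between 9:30 and 16:30, when they were out on pasture. Outside these hours a shed kept light down to about 0.1 lux, and it was cooler than the open air by 1 degree. For the 3 goats of the natural photoperiod, day length was left as in nature. The goats of the short photoperiod grazed, were fed and drank between 9:30 and 16:30, while the others grazed under natural conditions. The paper gives no feeding hours for the natural group. It reports regular management for all goats and names photoperiod as the only difference between the groups. Each of the 3 arrays paired 1 goat of each group from the same parent, with the short photoperiod sample in the red dye Cy5 and the natural photoperiod sample in the green dye Cy3. With 0 dye swaps, an effect of the dye on a probe cannot be told apart from the photoperiod. All arrays lay on 1 slide. Whole skin was measured, so the signals cannot be assigned to follicle epithelium, and fewer cells of a type and less RNA per cell cannot be told apart.

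Signals are mean spot intensities from the scanner. Ratios are log2 values of Cy5 over Cy3 after background correction and loess normalization within each array, so a value above 0 means a higher signal under the short photoperiod and a value of 1 is a 2-fold difference. Each member probe had 1 spot per array, with 0 spots flagged as outliers. In Cy5 the 77 negative control spots had a median of 51.0 on replicate 1, 57.2 on replicate 2 and 62.0 on replicate 3. Their Cy3 medians were 39.6, 43.5 and 44.6. The highest negative control spot on replicate 3 read 789 in Cy5 and 339 in Cy3, against 211 and 73.9 on replicate 1 and 231 and 56.6 on replicate 2.

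**Figure D1:**
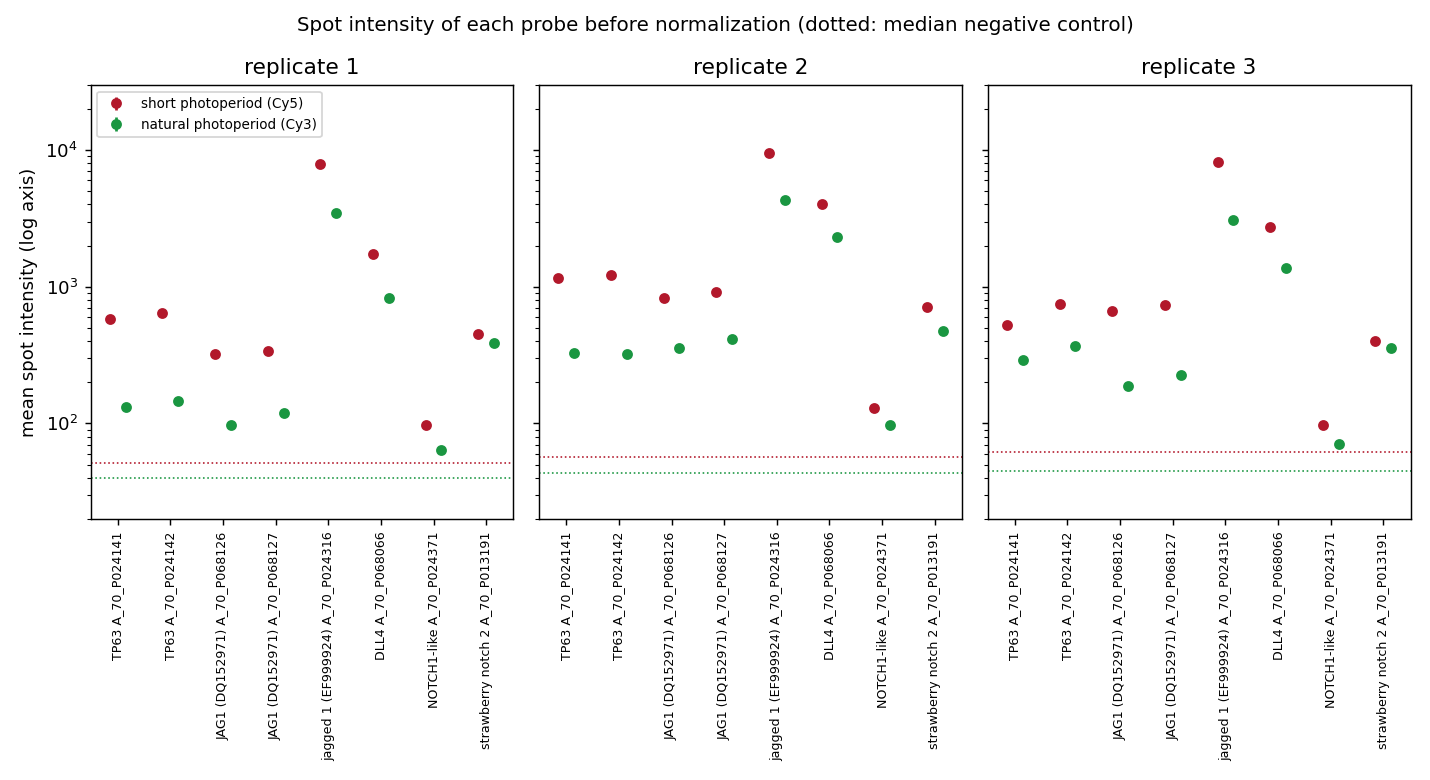
Mean spot intensity before normalization (log axis) of the 8 member probes on each array, red for the short photoperiod in Cy5 and green for the natural photoperiod in Cy3; bars are the standard error over the pixels of the spot and dotted lines the median negative control of each dye. The jagged 1 probe of record EF999924 reads 3099 or more in both dyes, while the NOTCH1-like probe reads 131 or less.

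JAG1 encodes jagged 1, a transmembrane ligand of Notch receptors, and 2 records on the array are described as jagged 1. Whether both come from the same gene was not checked here, for want of a reference sequence. The JAG1 record DQ152971 had 2 probes, A_70_P068126 and A_70_P068127. In the short photoperiod samples A_70_P068126 read 323, 829 and 667 on replicates 1, 2 and 3, and in the natural photoperiod samples 96.9, 353 and 188. A_70_P068127 read 339, 912 and 738 under the short photoperiod and 119, 414 and 227 under the natural photoperiod. Replicate 2 was the brightest array for both probes in both groups, and all of these signals were well above background. On replicate 3 the 4 signals of JAG1 lay under the highest negative control spot of the same dye.

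The log2 ratios of A_70_P068126 were 0.90, 0.56 and 1.22, with a mean of 0.89 ± 0.33 (SD, n = 3). Those of A_70_P068127 were 0.75, 0.46 and 1.08, with a mean of 0.77 ± 0.31 (SD, n = 3). JAG1 was thus higher under the short photoperiod within each pair, most on replicate 3 and least on replicate 2. After normalization across arrays, the log2 level of A_70_P068127 averaged 8.99 ± 0.42 (SD, n = 3) under the short photoperiod and 8.22 ± 0.60 (SD, n = 3) under the natural photoperiod. The groups overlapped, since the lowest short photoperiod level of 8.54 was under the highest natural level of 8.90. The same held for A_70_P068126, with 8.47 and 8.70.

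The other jagged 1 record, EF999924, is named LOC100125624 on the array and had 1 probe, A_70_P024316. It read 7875, 9465 and 8151 under the short photoperiod and 3437, 4310 and 3099 under the natural photoperiod. Its log2 ratios were 0.40, 0.29 and 0.50, with a mean of 0.40 ± 0.10 (SD, n = 3), or 1.32-fold. It was higher in 3 of 3 pairs but did not pass the test (limma, adjusted p = 0.188). The normalized levels of the groups overlapped, between 12.3 and 12.9 under the short photoperiod and between 11.8 and 12.5 under the natural photoperiod.

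Both records had their lowest ratio on replicate 2 and their highest on replicate 3. The mean ratio of the DQ152971 probes exceeded that of EF999924 by 0.43 on replicate 1, 0.22 on replicate 2 and 0.65 on replicate 3, with a mean of 0.43 ± 0.22 (SD, n = 3). This difference was not tested, because DQ152971 was selected on the same ratios.

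DLL4, a ligand of the delta-like family known from blood vessels, had 1 probe, A_70_P068066 of record DQ152946. It read 1746, 4062 and 2727 under the short photoperiod and 824, 2305 and 1361 under the natural photoperiod. The log2 ratios were 0.33, 0.04 and 0.21, with a mean of 0.19 ± 0.15 (SD, n = 3), and the probe did not pass the test (limma, adjusted p = 0.392). The mean was 0.12 without replicate 1 and also 0.12 with median centring. Its normalized levels overlapped between the groups.

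The only receptor probe was A_70_P024371 of record EF999923, described on the array as NOTCH1-like. Its signals were 97.6, 131 and 98.0 under the short photoperiod and 64.3, 98.1 and 71.0 under the natural photoperiod. It was not well above background in Cy5 on 3 of 3 arrays and was well above background in Cy3 on 1 of 3 arrays, replicate 2. The log2 ratios were 0.09, 0.00 and 0.06 (limma, adjusted p = 0.798), and their mean changed sign with the processing. Because these signals lie near background, the ratios are not read as a difference between the groups.

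Strawberry notch homolog 2, record TC61306, entered through its name and is not a core component of the pathway. Its probe A_70_P013191 read 451, 710 and 399 under the short photoperiod and 388, 477 and 359 under the natural photoperiod. The normalized ratios were -0.51, -0.10 and -0.39, with a mean of -0.33 ± 0.21 (SD, n = 3). The raw signals of this probe were higher in Cy5 on each array, as was the median signal of all spots, and its normalized ratios were below 0. The probe did not pass the test (limma, adjusted p = 0.254), and its mean was -0.55 with median centring.

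TP63 encodes the transcription factor p63. Its record EF491630 is described on the array as a partial coding sequence of the gamma form and had 2 probes, A_70_P024141 and A_70_P024142. A_70_P024141 read 582, 1166 and 526 under the short photoperiod and 131, 327 and 289 under the natural photoperiod. A_70_P024142 read 641, 1217 and 753 under the short photoperiod and 145, 319 and 368 under the natural photoperiod. All were well above background. On replicate 3 the red signals of both probes and the green signal of A_70_P024141 lay under the highest negative control spot of the same dye.

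The log2 ratios of A_70_P024141 were 1.34, 1.12 and 0.26, with a mean of 0.91 ± 0.57 (SD, n = 3). Those of A_70_P024142 were 1.32, 1.23 and 0.39, with a mean of 0.98 ± 0.51 (SD, n = 3). TP63 was higher in 3 of 3 pairs, by more than 2-fold on replicates 1 and 2 and by less on replicate 3. Replicate 3, the array where JAG1 had its highest ratio, gave the lowest ratio of TP63. Without replicate 3 the mean of the TP63 probes was 1.25. With each array centred on its median in place of loess, TP63 on replicate 3 was -0.01.

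The normalized level of A_70_P024141 averaged 9.19 ± 0.58 (SD, n = 3) under the short photoperiod and 8.28 ± 0.32 (SD, n = 3) under the natural photoperiod, and the groups overlapped at 8.57 and 8.59. The level of A_70_P024142 was at least 9.02 under the short photoperiod and at most 8.63 under the natural photoperiod, so its groups did not overlap. Nothing is read from this, since TP63 was selected on these arrays and the share of all probes without overlap is not given here.

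**Figure D2:**
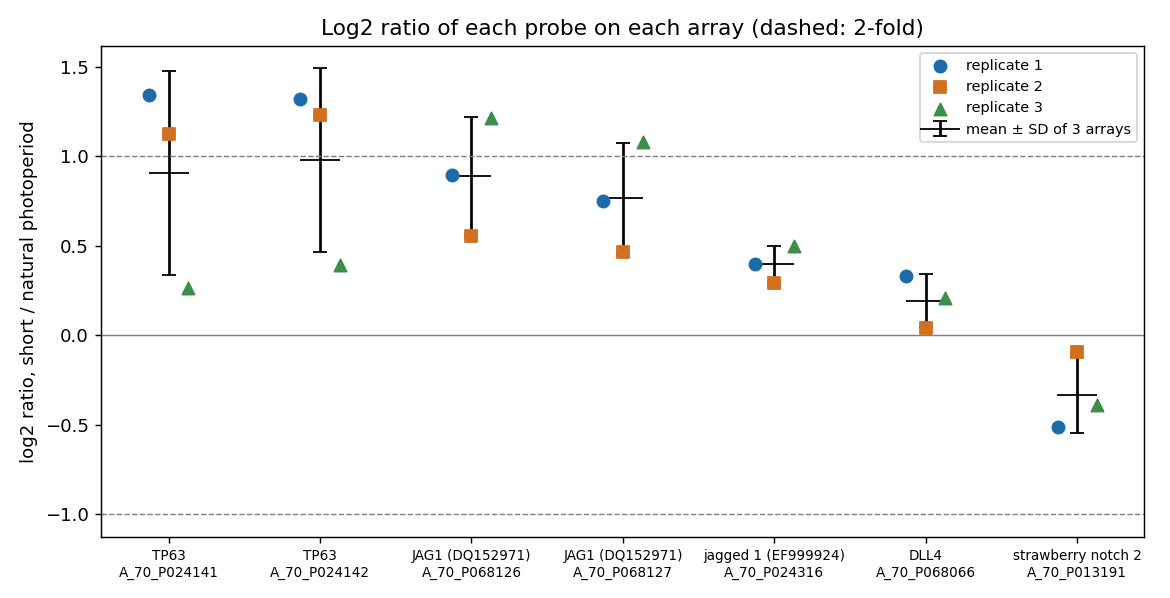
Log2 ratio of short over natural photoperiod for the 7 member probes well above background on every array; symbols are the 3 arrays and bars the mean ± SD. TP63 is lowest on replicate 3 (0.26 and 0.39), while JAG1 of record DQ152971 is lowest on replicate 2 (0.56 and 0.46).

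The 2 probes of TP63 and the 2 of JAG1 are not independent measurements, which their sequences show. Each is 60 bases long, and the starts within a record differ by 1 base. Capitals mark the 59 bases shared within a pair.
TP63 A_70_P024142: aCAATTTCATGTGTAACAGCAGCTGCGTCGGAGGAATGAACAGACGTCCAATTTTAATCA
TP63 A_70_P024141: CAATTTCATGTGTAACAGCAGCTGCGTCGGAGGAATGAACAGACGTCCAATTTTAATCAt
JAG1 A_70_P068127: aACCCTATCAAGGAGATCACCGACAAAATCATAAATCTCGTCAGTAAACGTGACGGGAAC
JAG1 A_70_P068126: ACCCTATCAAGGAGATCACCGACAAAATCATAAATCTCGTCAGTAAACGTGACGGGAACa
The jagged 1 probe of EF999924 is printed with them because its ratio was smaller, and it shares no run of 20 bases with the JAG1 probes above.
EF999924 A_70_P024316: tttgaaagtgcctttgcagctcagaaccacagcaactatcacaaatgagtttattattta
The TP63 probes start at bases 628 and 629 of their record, the JAG1 probes at 131 and 132, and the EF999924 probe at 761. The share of G and C was 41.7% in the TP63 probes, 43.3% in the JAG1 probes and 35.0% in the EF999924 probe, against a median of 43.3% over the array. Apart from these pairs, 0 probes of the array shared a run of 20 bases with a member on either strand. The mean ratios differed by 0.07 within the TP63 pair and by 0.12 within the JAG1 pair. Over 189 other probe pairs with starts 1 base apart, the median difference was 0.037 and the 90th percentile 0.153.

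A mean change of at least 2-fold in either direction was reached by 0 of 8 member probes, while 128 of 14977 tested probes reached it (0.855%). The TP63 and JAG1 means lay just short of this limit, between 0.77 and 0.98, and the nearest other member was EF999924 at 0.40. In the deposited log2 ratios, 3 of the 8 probes passed, both of TP63 with means of 1.09 and 1.19 and 1 of JAG1 with 1.14, while the other JAG1 probe stood at 0.97. In those ratios 474 of 15008 probes passed (3.16%), and nothing is read from the members' count, since TP63 and JAG1 were selected on their fold change. Which of these probes passed the fold rule therefore differed between the ways of processing. Of the 4 members found through their descriptions, 0 passed the limma test at an adjusted p under 0.05, which 1 of 14977 probes passed (0.00668%). At an unadjusted p under 0.05, 9.05% of all probes were higher and 9.41% lower under the short photoperiod. Of the 4 members found through their descriptions, EF999924 was higher and TC61306 lower at this level (limma, unadjusted p = 0.0111 and 0.0419). DLL4 and the NOTCH1-like probe did not reach it.

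Of the 8 member probes, 6 were higher on all 3 arrays and 1 was lower on all 3, where 21.4% and 21.9% of all tested probes were. The 4 probes of TP63 and JAG1 are among the 6 and were selected on these ratios, so nothing is read from this count. TP63, JAG1 of DQ152971 and TC61306 belong to the second lowest of 10 classes of mean signal.

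**Figure D3:**
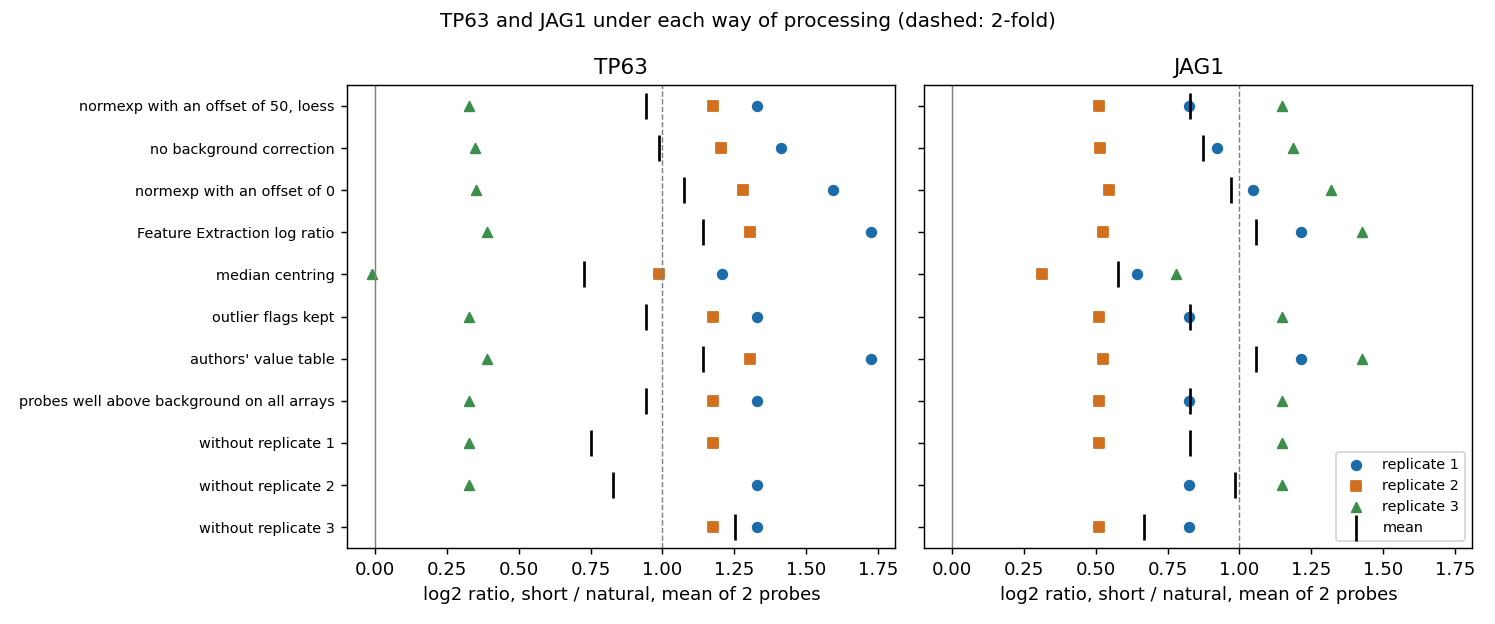
Log2 ratio of TP63 and JAG1 (record DQ152971, mean of 2 probes each) on each array under the normalization used and 10 alternatives; bars mark the mean and the dashed line a 2-fold difference. The mean stays above 0 in each, from 0.73 to 1.25 for TP63 and from 0.58 to 1.06 for JAG1. Keeping flagged spots or using only probes well above background could not change these means.

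A list of 49 other genes of the Notch pathway was matched by 6 probes, each for a different gene, of which 5 were well above background on every array. Of these 5, 0 passed the limma test at an adjusted p under 0.05, and at an unadjusted p under 0.05, 1 was higher and 0 lower. Their median log2 ratio was 0.04, against -0.01 over all tested probes, and turned to -0.04 without replicate 1. RFNG, a fringe enzyme that adds sugars to Notch receptors, had ratios of 0.48, 0.21 and 0.34 with a mean of 0.34 ± 0.13 (SD, n = 3; limma, adjusted p = 0.220). The protease ADAM17 had a mean of -0.04, the ubiquitin ligase ITCH 0.09, the nuclear cofactor SNW1 -0.09 and the corepressor SPEN 0.04. ITCH was below 0 on replicate 1, at -0.05, and SNW1 above 0 on replicate 2, at 0.015. Without replicate 1 their means were 0.16 and -0.04, and without replicate 2 they were 0.04 and -0.14. SPEN had no settled direction, with ratios of 0.37, 0.00 and -0.25. MIB2, a ubiquitin ligase of Notch ligands, had a mean of -0.07 and was not well above background throughout.

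The list of basal keratinocyte genes was matched by 17 probes for 12 of 29 genes. The probe of KRT5 had a value on fewer than 2 arrays and was not tested. Of the 16 others, 0 passed at an adjusted p under 0.05, while 2 were higher and 1 lower at an unadjusted p under 0.05. Their median ratio was 0.45 on replicate 1, -0.09 on replicate 2 and -0.08 on replicate 3. The median of the mean ratios was 0.14, or -0.12 without replicate 1 and 0.27 with median centring. The highest means belonged to SFN, a 14-3-3 protein of keratinocytes, with 0.80 ± 0.14 (SD, n = 3), and to KRT14, a keratin of basal cells, with 0.65 ± 0.57 (SD, n = 3). TFAP2A (A_70_P039521) at 0.35 and FGFR2 (A_70_P041781) at 0.29 followed. Without replicate 1 this TFAP2A probe had a mean of 0.19. The other TFAP2A probe had a mean of 0.01, and FGFR2 was above 0 on replicate 1 alone, with ratios of 1.16, -0.26 and -0.03. The lowest means were those of 3 IGFBP3 probes, at -0.63, -0.36 and -0.18, and of a GATA3 probe at -0.13. The IGFBP3 probe at -0.36 (A_70_P041806) had a mean of -0.16 without replicate 2 and -0.58 without replicate 1. The IGFBP3 probe at -0.18 (A_70_P028616) had a mean of 0.10 without replicate 2 and -0.48 without replicate 1, and the GATA3 probe (A_70_P068102) 0.05 without replicate 3 and -0.37 without replicate 1. KRT14 had ratios of 1.24, 0.62 and 0.10, with replicate 3 lowest as for TP63, and a mean of 0.36 without replicate 1.

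Markers of other skin cells are given beside these values, and their part in the TP63 and JAG1 ratios was not tested. The hair matrix and precortex list had 9 probes from 5 genes. Of these probes, 7 were higher on all 3 arrays and 5 were higher at an unadjusted p under 0.05 (limma). Over all tested probes the shares were 21.4% and 9.05%. The median of the list was 0.46, or 0.30 without replicate 3. HOXC13, a transcription factor of the hair shaft, had the highest mean of 0.87 ± 0.66 (SD, n = 3), with ratios of 0.49, 0.48 and 1.63. Without replicate 3 its mean was 0.49, and BMP2 was highest at 0.59. The brightest probe was one of BMP4, which also had the lowest mean of -0.24. This BMP4 probe had a mean of -0.07 without replicate 1 and -0.36 without replicate 2. The summed normalized signal of the list was 113100, 143700 and 147600 under the short photoperiod and 110400, 119500 and 108500 under the natural photoperiod. Its medians on replicates 1, 2 and 3 were 0.35, 0.24 and 0.75, with replicate 3 highest and replicate 2 lowest as for JAG1.

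Among leukocyte markers, 13 of 13 probes well above background were lower on all 3 arrays and at an unadjusted p under 0.05 (limma), although 0 passed after adjustment. Their median was -0.54. These probes come from 7 genes, and probes of 1 gene are not independent. Over all tested probes, 21.9% were lower on all 3 arrays and 9.41% were lower at that unadjusted level. The 2 probes of CD4 were too dim to be counted. LYZ was the brightest at -0.54, FCGR1A had the lowest mean of -1.09 and FCER1G the highest of -0.31. Their summed normalized signal was 172600, 157500 and 140100 under the short photoperiod and 255400, 202600 and 243700 under the natural photoperiod, so these groups did not overlap. The endothelial list had 11 probes well above background, from 7 genes. Of these probes, 9 were lower on all 3 arrays, 4 of them at an unadjusted p under 0.05, with a median of -0.33. This median was -0.19 without replicate 3 and -0.59 with median centring. PECAM1 was the brightest at -0.33, SELE the lowest at -1.03 and ENG the highest at -0.14. The ENG probe had a mean of -0.075 without replicate 1 and -0.248 without replicate 2. The summed normalized signal of this list was 30030, 32860 and 27830 under the short photoperiod and 39660, 43420 and 37870 under the natural photoperiod. DLL4 had a ratio above 0 on the same arrays.

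In the dermal papilla list 4 of 10 probes, all of FGF7, were lower on all 3 arrays, against 21.9% of all tested probes, and the median was -0.26. Replicate 1 carried this median, with -0.74 against 0.07 on replicate 2 and -0.20 on replicate 3. The median was -0.02 without replicate 1 and -0.46 without replicate 2. FGF7 held both the brightest probe, at -0.46, and the lowest, at -0.65, and SOX2 was highest at 0.18. Without replicate 1 these FGF7 probes had means of -0.26 and -0.39. The SOX2 probe had 0.30 without replicate 2 and 0.05 without replicate 3. The 6 adipocyte probes had a median of -0.37, carried by replicate 3, with 0.06, -0.19 and -0.70 on replicates 1, 2 and 3 and -0.08 without replicate 3. Of these, the 2 of LPL, one of them the brightest, were lower on all 3 arrays, at -0.66 and -0.72. PLIN1 was highest at 0.02. Without replicate 1 the LPL means were -0.41 and -0.48, and that of this PLIN1 probe was -0.01. Of 4 melanocyte probes, TYR had the brightest and lowest at -0.30 and KIT the highest at -0.13. This TYR probe had ratios of -0.53, -0.74 and 0.37, so replicate 3 had the opposite sign, and its mean without that array was -0.63. The KIT probe had a mean of -0.03 without replicate 1 and -0.24 without replicate 3. The median of the list was -0.18, but -0.44 without replicate 3 and -0.05 without replicate 1. It was -0.10 without replicate 2 and -0.41 with median centring. CD34, the single probe for the outer root sheath and bulge, had a mean of -0.03, and CNN1, the single probe for mural cells and smooth muscle, had ratios of 0.06, 0.07 and -0.74. The mean of CNN1 was -0.20, but 0.07 without replicate 3 and 0.38 with median centring. The lists for suprabasal epidermis and skeletal muscle matched 0 probes.

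The probes most like TP63 and JAG1 were ranked by the distance of their 3 log2 ratios, over 1194 probes with a gene symbol that were well above background. For TP63 these were KRT14, CYP17A1, CTSL2, BARX2 and AQP5, at distances from 0.61 to 0.75. For JAG1 they were GJA1, EEF1A1, GJB2, SFN and FGF18, at distances from 0.23 to 0.33. KRT14 was the nearest to TP63, and GJA1, the gap junction protein connexin 43, with ratios of 0.81, 0.32 and 1.28, was the nearest to JAG1. With 3 arrays this ranking is a description of these samples.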

How the data were processed

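Skin RNA of 6 goats was measured on 3 Agilent sheep arrays. The deposited scanner files hold spot and local background intensity in both dyes, which the authors obtained with Agilent Feature Extraction 10.7.3.1 and which are not normalized. The deposited log10 ratio of the same software is background-subtracted and dye-normalized, and the authors' value table holds log2 ratios of Cy5 over Cy3 of those processed signals, equal to within 0.001 for at least 99.96% of 14958 probes with 1 spot. Its column medians were 0.0082, 0.0012 and 0.0179.

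Ratios were computed in R 4.3.3 with limma 3.58.1. The background was corrected by normexp (offset 50, control spots included), and the non-control spots were then normalized by loess for each array separately. Feature Extraction's 4 kinds of outlier flag removed a spot, and repeat spots were averaged by probe. The 14977 probes measured on at least 2 arrays were tested against 0 with lmFit and eBayes, with Benjamini-Hochberg adjustment and a threshold of 0.05. The test was checked on simulated data. Levels per dye were taken after Aquantile normalization between arrays. Spots are well above background as Feature Extraction marks them.

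Each array pairs 1 goat of each group from the same parent, so the test is paired. Deviations of both channels of an array from their group means correlated at 0.593, 0.463 and 0.538. Both channels are read from the same spots, so this correlation cannot show that the goats were matched. With 1 slide there was no batch to block on. Precision is limited by the small number of arrays.

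The members and lists were chosen with earlier results of these data known. All member probes are named. Lists were matched on symbols, and full names were added after the array annotation was seen. Of the Notch and basal lists every probe is given up to 12, otherwise the 4 highest and 4 lowest. Of other lists the brightest, highest and lowest are given. 1 gene of the basal list is not reported here and was left out of its counts after the results were seen. The 5 nearest probes by Euclidean distance are named for TP63 and JAG1. Figures were drawn with matplotlib.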

Additional observations from a re-analysis of the deposited data

How the results depend on the processing

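The mean log2 ratios of TP63 and JAG1 stayed above 0 and moved by less than 1 SD between arrays in 10 of 10 alternatives each. Not all of these could move them. Keeping flagged spots or using only probes well above background could not change the means of 0.94 and 0.83. The authors' value table gave the same means as the log ratio of Feature Extraction. With the ratio above 0 on every array, leaving out 1 array could not turn a mean below 0. The number of member probes with at least a 2-fold change, with the share of all probes, was 0 (0.855%) with the processing used, 1 (0.955%) without background correction, 3 (1.34%) with normexp at an offset of 0, 3 (1.79%) with the log ratio of Feature Extraction and 3 (3.16%) in the authors' value table. With median centring it was 0 (2.48%). When 1 array was left out it was from 0 to 2. It was 0 (1.95%) without replicate 1, 1 (1.40%) without replicate 2 and 2 (1.07%) without replicate 3. The cause was not tested.

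The number of probes called by limma on the whole array was 1, against 0 with the log ratio of Feature Extraction, 14 in the authors' value table, 1885 with median centring, 161 in the fit of separate channels with the correlation within spots, and 0 with any 1 array left out. Without the replicate block, with the channels taken as unpaired samples, it was 0. The calls with median centring include 1 probe of JAG1, which was selected on these arrays, so this is no test of it. At an unadjusted p under 0.05, 2764 probes passed with the processing used.

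For EF999924, DLL4 and TC61306 adjusted p (limma) stayed above the threshold in 13 of 13 alternatives each. It was 0.0688 to 0.807, 0.311 to 0.976 and 0.0549 to 0.912. Their direction held, but only other background correction or normalization could turn it. The NOTCH1-like probe had a mean of 0.05, which turned to -0.083 with the log ratio of Feature Extraction, -0.43 with median centring and -0.060 in the authors' value table (limma, adjusted p from 0.0728 to 0.992 over its alternatives). The cause was not tested.

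Alternatives for the list medians and list probes, the 2-fold shares of all probes, and matching by symbol alone were chosen after seeing the data. Without replicate 1 the median was -0.04 for the other Notch pathway list, -0.12 for the basal keratinocyte list and -0.02 for the dermal papilla list. Without replicate 3 it was -0.19 for the endothelial list, -0.08 for the adipocyte list and 0.07 for the mural probe. Median centring gave -0.59 for the endothelial list, 0.38 for the mural probe and -0.23 for CD34. It gave 0.27 for the basal keratinocyte list, -0.41 for the melanocyte list and -0.59 for the adipocyte list. The log ratio of Feature Extraction gave -0.49 for the endothelial list, as did the authors' value table. The signal of the NOTCH1-like probe was 2.7 to 4.5 times the local background.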
